A study of Mus musculus with 85 samples.

Results

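The comparison described here set Kupffer cells of BALB/cJ mice against Kupffer cells of C57BL/6J mice after both strains had eaten the AMLN diet for 30 weeks. It took all RNA-seq libraries that the labels give for those cells, that diet and those strains, 3 from BALB/cJ and 4 from C57BL/6J, which is 7 of the 85 samples of the series. The study asked how inherited variation shapes the Kupffer cell, and for that it also sequenced untreated Kupffer cells of both strains (2 libraries each) and donor Kupffer cells of both strains from NSG hosts, immunodeficient mice repopulated with their marrow after busulfan (3 libraries each). These last groups are used here only to show where the AMLN-fed cells differ. All mice were male adults, and BALB/cJ and C57BL/6J are inbred strains with no engineered allele. AMLN is rich in fat, fructose and cholesterol and is fed to model non-alcoholic steatohepatitis (NASH). The cells were sorted as CD146-negative, CD45-positive, F4/80-high and CD11b-intermediate, in the presence of flavopiridol, a transcription inhibitor that limits changes during digestion. The labels call the untreated libraries Control and speak of fasted, uninjected control mice, but do not settle which diet the mice of these libraries ate or whether they were of the age of the AMLN-fed mice. Diet, fasting, age and the date of the work thus cannot be told apart between untreated and AMLN-fed cells. The labels name the AMLN-fed C57 mice C57BL/6J, whereas the study's methods describe C57BL/6 mice of its NASH work as maintained in the laboratory. A difference of colony between untreated and AMLN-fed C57 mice, if there was one, cannot be told apart from diet either.

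Kupffer cells are the macrophages that line the liver sinusoids, where they take up dying red cells, recycle heme iron and clear bacterial products from portal blood. Their identity is held by factors that include Spi1, the liver X receptor Nr1h3, Spic and Id-family proteins, and it is marked by Clec4f, Timd4, Vsig4 and Cd163. In fatty liver some resident cells are lost, recruited monocytes take their place, and macrophages of a lipid-associated type appear that carry Trem2, Gpnmb, Cd9, Itgax and Spp1. F4/80 and CD11b are shared by these cells, so that the sort could hold both.

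Total counts lay between 14.27 and 18.04 M in the BALB/cJ libraries and between 18.54 and 20.94 M in the C57BL/6J libraries (M, counts times 1e6). Log-scale correlation was 0.91 to 0.921 within BALB/cJ, 0.976 to 0.993 within C57BL/6J and 0.727 to 0.843 between the strains. The labels do not say that each library came from its own mouse, so that p-values measure the spread between libraries. Levels are given as TPM, transcript abundance scaled for gene length and for the library total, and strain differences as log2 of BALB/cJ over C57BL/6J with the standard error (SE) from edgeR's quasi-likelihood fit. The fit is centred differently from TPM, and the log2 ratio of mean TPM lay a median of 0.24 above the fitted value. Called genes are those with an edgeR p of less than 0.05 after Benjamini-Hochberg adjustment and a log2 difference beyond 1 in either direction.

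The strain labels were checked on a pair of genes. H2-Ea-ps, the class II alpha chain gene that mice of the H2-b haplotype such as C57BL/6 do not transcribe, stood at 226, 1463 and 483 TPM in the BALB/cJ libraries and at 0, 1.87, 0.741 and 0.944 TPM in the C57BL/6J libraries. Nnt, a mitochondrial gene that carries a deletion in the C57BL/6J substrain, was at 27.8, 33.1 and 29.2 TPM in BALB/cJ and at 17.6, 21.7, 18.4 and 17.0 TPM in C57BL/6J. The groups did not overlap, but the Nnt difference on AMLN (log2 0.44 ± 0.12, adjusted p = 0.024) was under the fold limit, while it was 1.18 in untreated cells and in NSG hosts, both called.

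Markers of other liver cells were higher in all 3 BALB/cJ libraries. The summed level of 15 sinusoidal endothelial markers was 1576, 1121 and 4949 TPM in BALB/cJ libraries 1, 2 and 3 and 164 to 270 TPM in C57BL/6J. Sums were 605 to 1369 against 140.0 to 225 TPM for 14 stellate cell markers, 3163 to 4522 against 776 to 1404 TPM for 15 hepatocyte markers, and 847 to 979 against 85.4 to 97.0 TPM for 10 erythroid and platelet markers. In untreated cells of both strains the endothelial sum was 208 to 238 TPM. Untreated stellate sums were 308 to 374 TPM in BALB/cJ and 222 to 250 TPM in C57BL/6J. Untreated hepatocyte sums were 2377 to 2505 and 1653 to 1834 TPM. AMLN-fed C57BL/6J libraries thus lay below the untreated ones of their strain in hepatocyte markers, and BALB/cJ libraries above theirs. Untreated erythroid and platelet sums were 128 to 197 and 72.9 to 103 TPM. Kupffer cell identity markers (20) summed to 17331 to 21812 TPM in BALB/cJ and to 12335 to 16245 TPM in C57BL/6J. Monocyte and neutrophil markers (17) summed to 434 to 633 and 388 to 488 TPM, dendritic cell markers (10) to 113 to 220 and 263 to 354 TPM, lymphocyte markers (15) to 91.9 to 134 and 53.3 to 105 TPM, and cholangiocyte markers (6) to 2.42 to 9.41 and 3.26 to 6.48 TPM. A sum can rest on few genes. Of 5 lymphocyte markers tested, 2 were called lower in BALB/cJ and 1, Jchain, higher, with a median log2 difference of -0.66. The number lower was 1 without BALB/cJ library 2 or C57BL/6J library 1, 3 or 4, and 3 without C57BL/6J library 2. Of 3 dendritic cell markers tested, 1 was called higher and 1 lower. In bulk libraries a larger number of cells of a type and more RNA per cell cannot be told apart.

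Of 8335 genes tested, 1292 (15.5%) differed between the strains on AMLN. In BALB/cJ 823 were higher (9.87%) and 469 lower (5.63%), and the median log2 difference over all genes was 0.01. The counts of each gene list below are to be read beside these shares. Of the 823 higher genes, 593 (72.1%) had a mean over 2 times their highest Kupffer cell mean in sorted endothelial cells, stellate cells or hepatocytes of these strains. Of the 469 lower genes this held for 55 (11.7%), and of all 8335 genes tested for 1842. Without such genes 644 were called, 230 higher and 414 lower, so that the balance of the directions turned. The libraries of the strains did not overlap in TPM for 811 of the higher and 446 of the lower genes, and for 4152 (49.8%) of all genes.

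**Figure D1:**
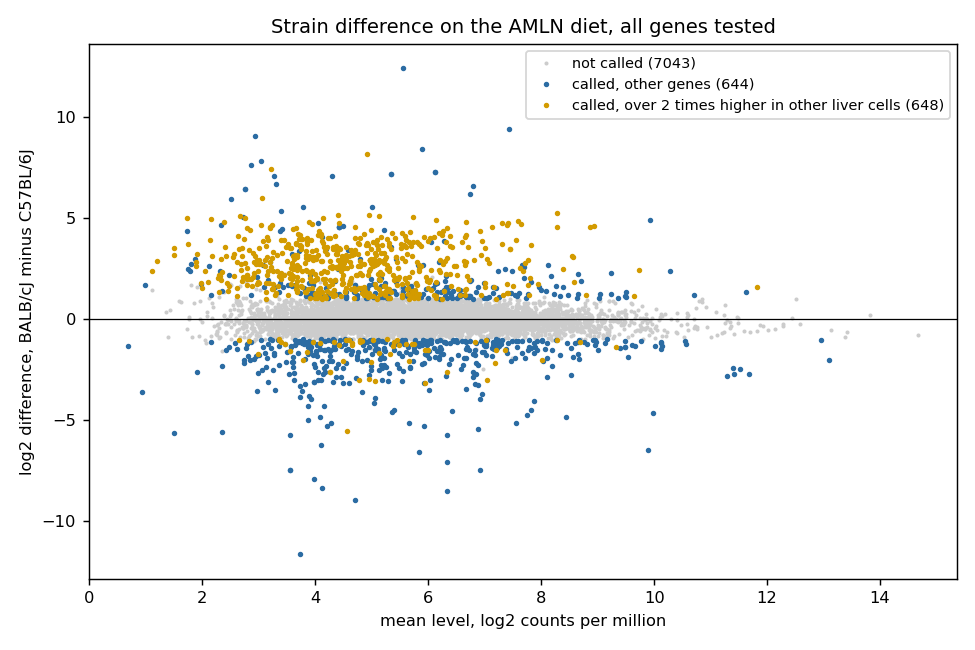
Log2 difference of BALB/cJ (n = 3) over C57BL/6J (n = 4) Kupffer cells on AMLN (y axis) against the mean level in log2 CPM (counts scaled to the library total; x axis), with 1 point for each of 8335 genes. Called genes that other liver cells hold at over 2 times the Kupffer cell level (yellow) lie mostly above 0, and the other called genes (blue) lie on both sides, 230 above and 414 below.

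More Kupffer cell identity genes were higher than lower in BALB/cJ, and the scavenger receptor Cd163 differed most. Of 19 tested, 6 were higher and 1 lower (9.87% and 5.63% of all genes), or 4 and 2 without BALB/cJ library 2, with a median log2 difference of 0.33, and none belonged to the genes held higher by other liver cells. Cd163 (chr6:124304636-124330529 on GRCm38.p6, as for the positions given later), which takes up haptoglobin-bound haemoglobin, was at 883, 593 and 540.3 TPM in the BALB/cJ libraries and at 7.43, 35.7, 23.4 and 9.91 TPM in the C57BL/6J libraries. Its lowest BALB/cJ value was far above its highest C57BL/6J value (log2 4.89 ± 0.58, adjusted p = 6.97e-04). Untreated cells of both strains held Cd163 at 1109 to 1408 TPM, with no called difference.

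Timd4, a phosphatidylserine receptor of long-lived resident macrophages, was at 294, 419 and 261 TPM in BALB/cJ and at 45.3, 158, 87.6 and 61.8 TPM in C57BL/6J (1.63 ± 0.41, adjusted p = 0.015). Untreated cells held 410.1 to 508 TPM in both strains. Timd4 was thus lower on AMLN than untreated in every C57BL/6J library. Fcna, ficolin A, a lectin of the complement system, was at 2697, 2143 and 2565 TPM against 245 to 578 TPM (2.38 ± 0.30). Gfra2, a co-receptor for neurturin, was at 157, 105 and 108 TPM against 15.9 to 25.7 TPM (2.47 ± 0.23), and its strain difference was of similar size in untreated cells (2.61 ± 0.17).

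Hpgd, which degrades prostaglandins, was higher by 1.24 ± 0.16, with 573 to 912 TPM in BALB/cJ and 241 to 298 TPM in C57BL/6J. Slc40a1, the iron exporter ferroportin, was higher by 1.32 ± 0.28, and without BALB/cJ library 2 its difference was 0.93, under the fold limit. Clec4f and Vsig4, chosen after their values were seen, did not pass. Clec4f, the lectin that defines Kupffer cells, was at 4347 to 5096 TPM in BALB/cJ and at 1595 to 2345 TPM in C57BL/6J, at the fold limit (1.00 ± 0.17, adjusted p = 0.0034). Vsig4, a complement receptor, was at 1942 to 3095 against 1226 to 1473 TPM (0.58 ± 0.19). Cd5l, a secreted scavenger protein and the most abundant identity gene, was at 4348 to 5172 against 5638 to 6909 TPM (log2 -0.57 ± 0.14, under the fold limit). Cd207, langerin, was the single lower identity gene, at 101, 185 and 129 TPM against 386 to 540.3 TPM (-1.99 ± 0.23).

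Among 15 transcription factors of Kupffer cells, 4 were higher and 1 lower in BALB/cJ. Spic, which red pulp macrophages and Kupffer cells use to handle iron, was at 58.8, 168 and 105 TPM against 29.7 to 36.2 TPM (1.49 ± 0.29). Id1 was higher by 1.43 ± 0.31 and Klf4 by 1.52 ± 0.29, the latter a gene that other liver cells hold higher. Nr1h3, which encodes the oxysterol sensor LXR alpha, was at 288, 195 and 204 TPM in BALB/cJ and at 405 to 502 TPM in C57BL/6J (-1.21 ± 0.19, adjusted p = 0.0020). Spi1, the macrophage factor PU.1, was at 368 to 381 against 480.2 to 523 TPM (-0.67 ± 0.10, under the fold limit).

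**Figure D2:**
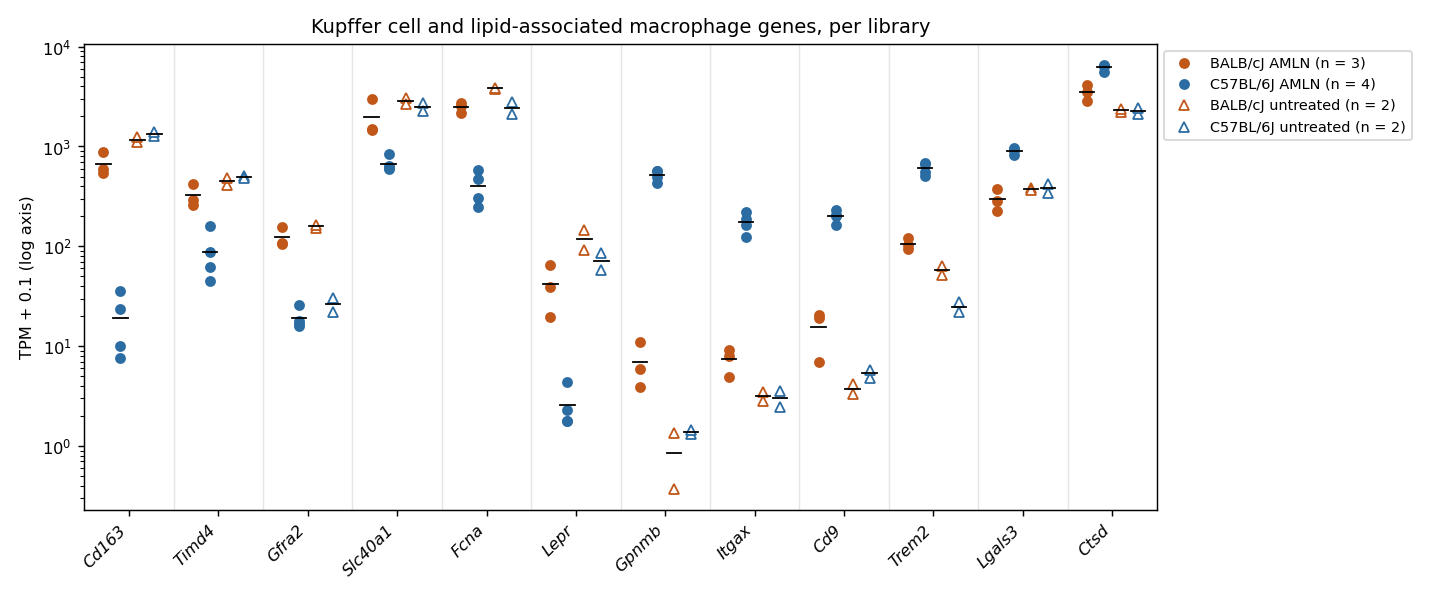
TPM with 0.1 added, on a log axis, for 6 genes of Kupffer cells (left) and 6 of lipid-associated macrophages (right), with 1 point per library and a bar at the mean. Circles are AMLN-fed and triangles untreated libraries of BALB/cJ (orange) and C57BL/6J (blue). In Cd163 and Gpnmb the AMLN-fed groups are apart while the untreated groups are close.

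Genes of lipid-associated macrophages were lower in BALB/cJ cells. Of 25 in the list 23 were tested, of which 15 were lower and 1 higher (5.63% and 9.87% of all genes), with a median log2 difference of -1.69. With no low-count filter 16 of 25 were lower and 1 higher. Gpnmb (chr6:49036518-49058182), a lysosomal glycoprotein, was at 5.79, 11.01 and 3.80 TPM in the BALB/cJ libraries and at 568, 494, 427 and 565 TPM in the C57BL/6J libraries (-6.47 ± 0.42, adjusted p = 4.77e-05). Untreated libraries of both strains were at 0.272 to 1.34 TPM. Trem2, the lipid receptor that drives this state, was at 120.0, 103 and 94.4 TPM in BALB/cJ and at 674, 556, 504 and 686 TPM in C57BL/6J (-2.75 ± 0.18, adjusted p = 4.16e-05). Untreated BALB/cJ cells held more Trem2 than untreated C57BL/6J cells, 51.7 and 63.1 against 21.9 and 27.8 TPM (1.22, called), so that the direction on AMLN was the opposite.

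Itgax, which encodes CD11c, was at 4.84, 9.08 and 7.85 TPM against 123 to 219.9 TPM (-4.84 ± 0.30). Cd9, a tetraspanin, was at 6.88, 20.4 and 18.9 TPM against 165 to 233 TPM (-3.97 ± 0.36). Lgals3, galectin-3, was at 226 to 375 against 827 to 964 TPM (-1.86 ± 0.20). For Itgax, Cd9 and Lgals3 the highest BALB/cJ library was below the lowest C57BL/6J library. Dendritic cells also carry Itgax, and their summed markers were lower in BALB/cJ, as given above. Of 3 such markers tested, however, 1 was higher (none without BALB/cJ library 3) and 1 lower. The part of dendritic cells in the Itgax difference was not tested.

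Other lower genes of the set were the fatty acid carrier Fabp5 (means of 3.70 against 24.2 TPM), the actin-capping Capg (log2 -2.86), the lipase Lpl (-2.44), the tetraspanin Cd63 (-1.78) and the tartrate-resistant phosphatase Acp5 (-1.17). Ctsd, the aspartic protease of lysosomes, was at 2872 to 4109 against 5525 to 6526 TPM (-1.06 ± 0.17), and without BALB/cJ library 3 its difference was -0.92, under the fold limit. The single higher gene was Colec12, a scavenger receptor, at 127 to 207 against 17.6 to 31.6 TPM (2.59 ± 0.25). Spp1, osteopontin, chosen after its values were seen, was at 8.59, 5.62 and 88.3 TPM against 83.4 to 236 TPM and did not pass (-2.46 ± 0.94, adjusted p = 0.072). Its values rested on BALB/cJ library 3, without which the difference was -4.64 (adjusted p = 0.0020).

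The promoters of Trem2 and Itgax are shown because these receptors define the cells and because both windows hold the letters TGANTCA, given in capitals. This pattern is looser than the AP-1 site, which has C or G at the free base N. The Itgax match (TGAGTCA) has that form, and the Trem2 match (TGAATCA) does not. Each is the 250 bases before the RefSeq start on GRCm38.p6, Trem2 at chr17:48346151-48346400 and Itgax at chr7:128129300-128129549, both on the plus strand.
Trem2: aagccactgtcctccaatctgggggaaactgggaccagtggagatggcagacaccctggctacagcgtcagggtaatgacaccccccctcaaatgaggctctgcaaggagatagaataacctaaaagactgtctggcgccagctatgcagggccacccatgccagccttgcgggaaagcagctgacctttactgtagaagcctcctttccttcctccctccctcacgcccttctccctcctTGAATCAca
Itgax: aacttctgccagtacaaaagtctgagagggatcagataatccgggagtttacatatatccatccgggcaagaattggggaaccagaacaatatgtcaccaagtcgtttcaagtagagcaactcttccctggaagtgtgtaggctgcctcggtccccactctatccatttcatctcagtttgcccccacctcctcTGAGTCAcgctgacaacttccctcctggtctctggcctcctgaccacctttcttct
The first base of the match lies 9 bases before the Trem2 start and 56 bases before the Itgax start. Searched on both strands, TGANTCA was in 6.87% of 27025 RefSeq promoter windows of that length and in 3 of the 12 lower genes of the set that had a window, Anxa2 being the third.

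Several proteases of the extracellular matrix were lower as well. Of 16 genes of matrix and proteases tested, 6 were lower and 3 higher, and 5 of the 16 are held higher by other liver cells, without which 4 were lower and 1 higher of 11. Mmp12, macrophage elastase, was at 19.0, 38.4 and 21.0 TPM in BALB/cJ and at 421 to 699 TPM in C57BL/6J (-4.65 ± 0.34). Mmp13, a collagenase, was at 5.42, 11.6 and 7.84 TPM against 49.3 to 124 TPM (-3.71 ± 0.40). Both were higher in BALB/cJ when untreated, Mmp12 by 2.68 and Mmp13 by 4.25. Adam8, a membrane protease of leukocytes, was at 2.79 to 5.73 against 117 to 131 TPM (-5.15 ± 0.29). Timp2, which inhibits metalloproteinases, was higher in BALB/cJ on AMLN (1.18 ± 0.12) and untreated (1.13).

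Of 26 lysosomal genes, 3 were lower and none higher (5.63% and 9.87% of all genes). The number lower was 5 without BALB/cJ library 1, and 2 without BALB/cJ library 3 or in 1 fit over the 3 AMLN groups. Atp6v0d2, a proton pump subunit of macrophages and osteoclasts, was at 1.25, 2.80 and 0.35 TPM against 45.1 to 96.1 TPM (-5.73 ± 0.60). Psap, the saposin precursor and the set's most abundant gene, was at 3004 to 4272 against 5399 to 6532 TPM (-0.88 ± 0.18, under the fold limit).

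Genes of MHC class II presentation were lower in BALB/cJ cells, 6 of 9 tested, with a median log2 difference of -1.95. H2-Ea-ps, described above, was the 1 higher gene. H2-Ab1 (chr17:34263227-34269418) was at 319, 1492 and 545 TPM in BALB/cJ and at 4713, 3473, 4334 and 4573 TPM in C57BL/6J (-2.70 ± 0.49, adjusted p = 0.0043). H2-Aa was at 364, 2187 and 684 TPM against 4143 to 5757 TPM (-2.47 ± 0.56), and H2-Eb1 at 191, 918 and 324 TPM against 2259.8 to 3162 TPM (-2.81 ± 0.51). Cd74, the invariant chain that guides class II molecules to endosomes, was at 2191, 5259.5 and 2188 TPM against 9304 to 11969 TPM (-2.01 ± 0.34). BALB/cJ library 2 was the highest of its group in H2-Ab1, H2-Aa, H2-Eb1 and Cd74, and still below every C57BL/6J library. Leaving it out gave 7 lower genes. The number lower was 5 without BALB/cJ library 3 or without C57BL/6J library 1, 3 or 4. It was 4 without both BALB/cJ library 3 and C57BL/6J library 2, where H2-Aa was not called.

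The class II difference was present in untreated cells too. There 7 of 9 genes were lower in BALB/cJ (2.83% of all genes were), H2-Ab1 by 2.54 and Cd74 by 1.61. None of the 9 had a called interaction of strain and diet, against 12.9% of all genes. With so few genes, and 2 untreated libraries per strain, this does not show that the differences were equal. In NSG hosts H2-Ab1 stood at a mean of 2520.5 TPM in BALB/cJ cells and 3018 TPM in C57BL/6J cells (-0.22, not called), and of 11 class II genes tested there 3 were lower and 1 higher (1.9% and 1.73% of all genes). The class II genes differ in sequence between the strains, and reads were aligned to each strain's own genome. Dendritic cells carry these genes at high levels, and the summed level of their markers was lower in BALB/cJ, as given above, although of 3 markers tested 1 was higher (none without BALB/cJ library 3) and 1 lower. Their part in the difference was not tested.

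The promoters of H2-Aa and H2-Eb1 are shown because class II genes share a promoter design with an inverted CCAAT element, the Y box, searched here as CTGATTGG and given in capitals. They are at chr17:34287824-34288073 on the minus strand and chr17:34305617-34305866 on the plus strand of GRCm38.p6.
H2-Aa: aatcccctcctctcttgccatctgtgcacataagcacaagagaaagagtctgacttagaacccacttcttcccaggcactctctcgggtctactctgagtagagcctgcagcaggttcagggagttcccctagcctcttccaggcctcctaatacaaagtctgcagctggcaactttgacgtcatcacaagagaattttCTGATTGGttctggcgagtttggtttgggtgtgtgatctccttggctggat
H2-Eb1: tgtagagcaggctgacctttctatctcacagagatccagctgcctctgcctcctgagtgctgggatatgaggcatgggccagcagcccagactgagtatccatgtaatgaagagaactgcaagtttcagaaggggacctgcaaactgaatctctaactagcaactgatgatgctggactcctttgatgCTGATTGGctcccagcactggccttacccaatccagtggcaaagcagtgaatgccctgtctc
Its first base lies 51 bases before the H2-Aa start and 62 bases before the H2-Eb1 start. The element was in 4.07% of the 27025 windows, on either strand, and in 2 of the 4 lower class II genes that had a window. The sequences are those of the reference genome and not of BALB/cJ.

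Costimulatory genes were lower in 3 of 12 cases and higher in none (5.63% and 9.87% of all genes). Cd40, the receptor through which T cells activate macrophages, was at 1.76, 4.37 and 3.50 TPM against 21.3 to 26.0 TPM (-3.16 ± 0.28) and was also lower untreated (-2.16). Cd276, a checkpoint ligand, was at 1.42 to 2.69 against 9.23 to 17.1 TPM (-2.85 ± 0.29), and Cd274, which encodes PD-L1, at 13.9 to 34.2 against 40.2 to 59.3 TPM (-1.51 ± 0.32). Of 18 MHC class I genes, 4 were lower and 1 higher, and 2 lower without BALB/cJ library 1 or C57BL/6J library 3 or in 1 fit over the 3 AMLN groups. Psmb8, a subunit of the immunoproteasome, was at 73.5 to 94.6 against 147 to 185 TPM (-1.23 ± 0.13), and B2m did not pass (-0.40 ± 0.16, adjusted p = 0.087). The changes of H2-Q7 (-2.63) and H2-T24 (1.93) are uncertain, since both have near-identical copies.

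**Figure D3:**
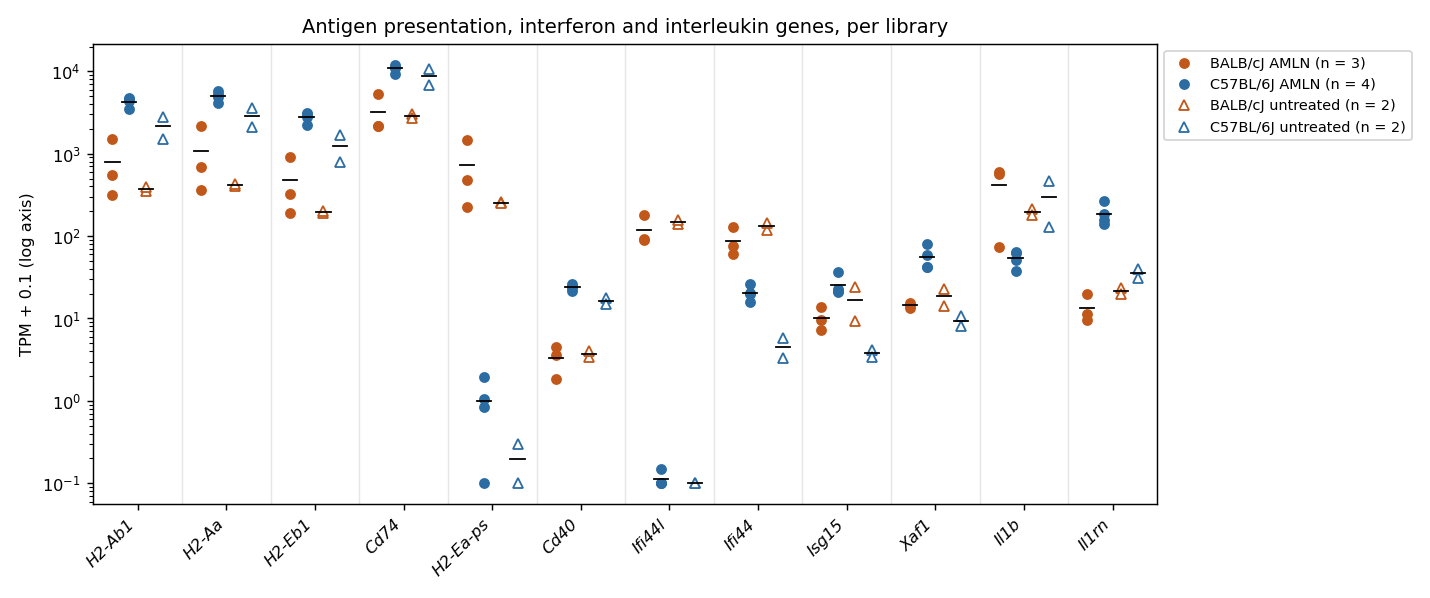
TPM with 0.1 added, on a log axis, for genes of antigen presentation, interferon response and interleukins, with 1 point per library and a bar at the mean. Symbols are as in the plot of Kupffer cell genes. The class II genes H2-Ab1, H2-Aa, H2-Eb1 and Cd74 are lower in BALB/cJ both on AMLN and untreated, and Ifi44l is near 0 in every C57BL/6J library.

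Interferon-stimulated genes showed a strain difference on AMLN that differed from that in untreated cells. On AMLN 8 of 36 were lower and 2 higher in BALB/cJ, with a median of -0.41. In untreated cells 7 were higher (3.1% of all genes) and none lower, with a median of 0.72, and 16 of the 36 had a called interaction, all toward lower BALB/cJ levels on AMLN (5.61% of all genes). Isg15, a ubiquitin-like modifier, was at 9.44, 7.09 and 13.7 TPM in BALB/cJ and at 22.9, 21.4, 36.1 and 21.1 TPM in C57BL/6J (-1.58 ± 0.30). Untreated it was at 9.31 and 24.3 TPM in BALB/cJ and 4.10 and 3.28 TPM in C57BL/6J, called in the other direction (2.17). Xaf1, which promotes apoptosis, was at 13.4 to 15.3 against 42.1 to 80.9 TPM (-2.20 ± 0.26), and Ifit3 at 8.12 to 18.4 against 26.1 to 37.4 TPM (-1.53 ± 0.27). Ifitm3, the set's most abundant gene, did not pass (-0.24 ± 0.23).

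Ifi44l and its neighbour Ifi44 were the 2 higher genes. Ifi44l (chr3:151758737-151762891) was at 89.8, 179 and 91.8 TPM in BALB/cJ and at 0, 0, 0.05 and 0 TPM in C57BL/6J, and both untreated C57BL/6J libraries were at 0. In untreated CB6F1/J hybrids of the strains, where both alleles share 1 nucleus, 93.7% ± 1.5 (SD, n = 4 libraries) of the reads over strain variants came from the BALB allele of Ifi44l. Ifi44 was at 60.3, 128 and 75.8 TPM against 16.0 to 26.3 TPM (1.85 ± 0.27), and its BALB allele share was 73.3% ± 0.51. The Ifi44 difference was larger in untreated cells (4.89), where C57BL/6J was at 5.64 and 3.20 TPM.

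Of 12 genes of the PYHIN and Schlafen families, which sense DNA or restrict translation, 3 were lower and 1 higher (5.63% and 9.87% of all genes). The higher gene was Ifi203, at 58.5, 127 and 97.0 TPM in BALB/cJ and at 30.6 to 38.5 TPM in C57BL/6J (1.21 ± 0.23). It is held higher by other liver cells, and was not called without BALB/cJ library 2 (0.97) or in 1 fit over the 3 AMLN groups, A/J included (adjusted p = 0.054). Slfn9 was at 2.10 to 6.42 against 13.7 to 20.4 TPM (-2.28 ± 0.35) and Ifi209 at 4.18 to 14.0 against 15.9 to 22.01 TPM (-1.51 ± 0.37). Ifi202b, a PYHIN gene outside that list whose expression is known to differ between inbred strains, was at 66.4, 152 and 106 TPM against 0.033, 0.373, 0.216 and 0.449 TPM, but genes of this family share sequence, so that their counts are uncertain. Of 12 guanylate-binding and immunity-related GTPases, Gbp2 alone was lower, at 7.502 to 29.3 against 36.8 to 61.6 TPM (-1.86 ± 0.42), and none was higher. Without BALB/cJ library 2 there were 3 lower, and without library 1 there were 1 higher and 1 lower.

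Inflammatory genes moved in both directions, 3 of 22 higher and 6 lower in BALB/cJ (9.87% and 5.63% of all genes), or 1 and 3 without BALB/cJ library 3. Without BALB/cJ library 1 the number lower was 3, and without any 1 of the C57BL/6J libraries the number higher was 1. Il1rn (chr2:24336860-24351491), the receptor antagonist that blocks interleukin-1, was at 9.44, 19.6 and 11.4 TPM in BALB/cJ and at 185, 157, 265 and 141 TPM in C57BL/6J (-4.05 ± 0.35, adjusted p = 1.69e-04). Il1b was at 72.8, 572 and 597 TPM in BALB/cJ and at 63.3, 51.3, 62.9 and 37.5 TPM in C57BL/6J (2.68 ± 0.59, adjusted p = 0.0095). BALB/cJ library 1 was close to the C57BL/6J libraries in Il1b and the other two were several times higher. Il1rn and Il1b thus differed in opposite directions.

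Tnfaip3, which encodes the NF-kB brake A20, was at 9.79 to 12.7 against 22.04 to 30.3 TPM (-1.51 ± 0.17) and was also lower untreated (-1.59). Acod1, which makes itaconate, was at 0.946, 0.113 and 0.489 TPM against 8.62 to 17.9 TPM (-4.84 ± 0.57). Calls for Tnf (-1.40 ± 0.46), Il1a (1.18 ± 0.34), Irak3 (-1.28 ± 0.38) and Socs3 (1.17 ± 0.35) were weak. Tnf was not called without any 1 of the BALB/cJ libraries (-1.496 to -1.308), and Irak3 without any 1 of them or without C57BL/6J library 2 or 3 (-1.35 to -0.86). Il1a lost its call without BALB/cJ library 2 or 3 or any C57BL/6J library (0.88 to 1.24), and Socs3 without BALB/cJ library 1 or 3 or any C57BL/6J library (0.79 to 1.22).

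Of 13 genes that sense or inactivate lipopolysaccharide, 2 were lower and 1 higher (5.63% and 9.87% of all genes). Aoah, the lipase that detoxifies lipopolysaccharide, was at 16.4, 16.0 and 12.3 TPM in BALB/cJ and at 36.0 to 69.0 TPM in C57BL/6J (-2.0 ± 0.27), and lower untreated as well (-2.27). In hybrids 34.1% ± 1.0 of the Aoah reads came from the BALB allele. Tlr4 was higher (1.15 ± 0.31), but not without BALB/cJ library 2 (0.70) nor without C57BL/6J library 2, 3 or 4 (1.08 to 1.17, adjusted p 0.051 to 0.062). Cd14 was at 165 to 225 against 107 to 157 TPM and did not pass (0.31 ± 0.21). Of 10 Toll-like receptors, 3 were lower, among them Tlr9, a DNA sensor (-1.74 ± 0.26), and Tlr1 (-1.36 ± 0.29).

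Chemokine ligands were lower in 8 of 17 cases and higher in 2 (5.63% and 9.87% of all genes). Ccl5, which attracts T cells and monocytes, was at 30.9, 10.5 and 14.8 TPM against 101, 47.9, 163 and 123 TPM (-2.75 ± 0.52). Cxcl9 was at 2.21 to 3.71 against 14.9 to 27.5 TPM (-2.97 ± 0.26), and Cxcl14 at 21.7 to 25.9 against 51.9 to 64.7 TPM (-1.57 ± 0.13), where untreated cells differed the other way (1.39). Ccl8 was at 0.453, 0 and 0.192 TPM against 3.47 to 19.3 TPM. Ccl24, eotaxin-2, was at 446, 328 and 295 TPM against 47.5 to 64.0 TPM (2.39 ± 0.19), and Ccr3, the eotaxin receptor, at 67.7, 102 and 146 TPM against 0.756 to 1.47 TPM (6.20 ± 0.32). The Ccl24 and Ccr3 differences were of like size untreated (1.98 and 5.64) and in NSG hosts (1.81 and 6.25). Ccl6, the most abundant ligand gene, did not pass (0.19 ± 0.16).

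Of 18 Fc and Cd300 receptor genes, 2 were higher and 2 lower (9.87% and 5.63% of all genes). Fcgrt, the neonatal Fc receptor that recycles immunoglobulin and albumin, was at 974, 731 and 947 TPM against 142 to 163 TPM (2.26 ± 0.14), and larger than the untreated difference of 0.98 (interaction 1.28, adjusted p = 0.0036). Fcgr1 was at 63.1 to 114 against 153 to 192 TPM (-1.18 ± 0.19). Fcgr2b was at 182, 228 and 787 TPM against 28.2 to 59.1 TPM (2.89 ± 0.51). Fcgr2b is held higher by sinusoidal endothelium, whose summed markers were also highest in BALB/cJ library 3, and their part was not tested. Ms4a7, a membrane protein of tissue macrophages, was at 15.7 to 23.5 against 96.7 to 131 TPM (-2.83 ± 0.19).

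Of 17 targets of LXR, the receptor encoded by Nr1h3, 5 were lower and none higher, or 2 of 11 lower without genes held higher by other liver cells. Scd1, stearoyl-CoA desaturase, was at 67.8, 131 and 88.0 TPM in BALB/cJ and at 188 to 232 TPM in C57BL/6J (-1.41 ± 0.22). Apoe, among the most abundant transcripts, was at 24424, 16096 and 19923 TPM against 27495 to 31243 TPM, under the fold limit (-0.80 ± 0.18). Untreated Apoe was the higher in BALB/cJ (0.48), and the interaction was called (-1.28, adjusted p = 0.0092). Fads1, a desaturase of polyunsaturated fatty acids, was at 176, 241 and 208 TPM against 37.5 to 42.6 TPM (2.12 ± 0.12), with differences of 1.70 untreated and 1.85 in NSG hosts. Insig1, which restrains cholesterol synthesis, was at 42.6 to 76.5 against 17.6 to 24.5 TPM (1.38 ± 0.21), a gene held higher by other liver cells. It was 1 of 2 higher genes among 18 of cholesterol synthesis (9.87% of all genes were higher), of which none was lower. The number higher was 5 without BALB/cJ library 1 and 1 without BALB/cJ library 2 or 3 or C57BL/6J library 2 or 4, and none of 7 was higher when genes held higher by other liver cells were left out. Of 19 genes of fatty acid oxidation 2 were higher and none lower (9.87% and 5.63% of all genes). Without genes held higher by other liver cells 0 of 6 were higher. Ucp2, an abundant mitochondrial carrier, did not pass (-0.04 ± 0.19).

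Genes of iron and heme handling were higher in 7 of 18 cases and lower in none, with a median of 0.81. Hmox1, which opens the heme ring, was at 2578, 2023 and 1913 TPM against 691 to 1023 TPM (1.17 ± 0.20), and at 0.99 without BALB/cJ library 1. Cd163 and Slc40a1, given above, were among the 7, and 3 of the 7 (Cp, Hp and Hpx) are products of hepatocytes, whose markers were also higher. The number higher was 4 in 1 fit over the 3 AMLN groups, and 4 of 14 without genes held higher by other liver cells. Fth1, ferritin heavy chain, did not pass (-0.61 ± 0.25). The erythroid transcripts Hbb-bs, at 386, 312 and 363 TPM against 0.75 to 5.06 TPM, and Hba-a1, at 184 to 267 against 0.463 to 2.17 TPM, were higher as well, and the globin genes of each pair share near-identical sequence. Efferocytosis and scavenger receptor genes were higher in 5 of 18 cases and lower in none, and in 3 without BALB/cJ library 3. Of the 18, 5 are held higher by other liver cells, and 2 of the remaining 13 were higher.

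Complement genes were higher in 5 and lower in 4 of 20 cases (9.87% and 5.63% of all genes). Of the 20, 7 are held higher by other liver cells, without which 2 were higher and 2 lower of 13. C2 was at 86.5, 64.2 and 73.5 TPM in BALB/cJ and at 2.11, 9.26, 3.91 and 2.82 TPM in C57BL/6J (3.80 ± 0.48), against 104 to 117 TPM in untreated cells of both strains. Cfb, a protease of the alternative pathway, was at 19.0 to 32.1 against 62.7 to 131 TPM (-2.16 ± 0.30). C5ar2, a decoy receptor of C5a, was at 3.77 to 11.3 against 22.99 to 26.4 TPM (-2.07 ± 0.32) and lower in untreated cells (-2.63) and NSG hosts (-2.92), with a BALB allele share of 12.3% ± 1.0 in hybrids. C1qb, the most abundant of the set, did not pass (-0.54 ± 0.19, adjusted p = 0.052). Arg2, mitochondrial arginase, was at 160.0, 120.0 and 57.5 TPM against 11.2 to 19.9 TPM (2.65 ± 0.36), while the arginine transporter Slc7a2 was at 2.67 to 5.76 against 22.3 to 37.8 TPM (-3.03 ± 0.33).

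Lepr, the leptin receptor, was higher in AMLN-fed BALB/cJ cells than in C57BL/6J cells. It lies at chr4:101717137-101815352 and was at 65.4, 39.4 and 19.4 TPM in BALB/cJ and at 1.67, 4.27, 1.67 and 2.18 TPM in C57BL/6J (3.85 ± 0.50, adjusted p = 0.0010). Untreated cells held 145 and 92.4 TPM in BALB/cJ and 57.3 and 85.4 TPM in C57BL/6J (0.74, not called), and the interaction was 3.10 (adjusted p = 0.016). In NSG hosts the means were 1.13 and 2.00 TPM, under the level tested. Of the other genes in the leptin receptor list, Leprot was at 161 to 168 against 103 to 133 TPM (0.28 ± 0.12). Leprotl1 was at 31.9 to 37.8 against 44.9 to 48.7 TPM (-0.69 ± 0.10), and both were under the fold limit. Jak2 (0.10), Stat3 (-0.18), Ptpn1 (-0.10) and Irs2 (0.14), which carry or end the signal, did not pass.

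A list of 12 genes was taken from those that the study's text shows as examples of strain differences in Kupffer cells, chosen on samples of this series, so that their direction here is not independent evidence. Of these, 8 were lower (5 without BALB/cJ library 3) and 2 higher in BALB/cJ on AMLN, and Atf5 (-0.35 ± 0.25) and Cxcr4 (0.49 ± 0.33) did not pass. The lower genes were Cd40, Trem2, Ccl5, Cxcl14, Tnfaip3, Cd300e, Irak3 and Mefv, and the higher were Fads1 and Lepr. Cd300e, a myeloid activating receptor, was at 14.8 to 30.4 against 26.2 to 71.4 TPM (-1.33 ± 0.43). Its groups overlapped, and it was not called without BALB/cJ library 1 or 3 or C57BL/6J library 2 or 3 (-1.27 to -1.04). Mefv, which encodes pyrin, had -1.14 ± 0.24, and -0.88 without BALB/cJ library 3.

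Proliferation genes were lower in BALB/cJ. Of 13 tested, 10 were lower and none higher, and the median was -1.98. The libraries did not overlap for any of the 13, against 49.8% of all genes. Mcm6 and Mcm5, parts of the replicative helicase, were at 1.31 to 3.43 against 12.6 to 20.5 TPM (-3.05 ± 0.32) and at 2.48 to 6.53 against 15.9 to 26.9 TPM (-2.67 ± 0.35). Ube2c, a ubiquitin enzyme of mitosis, was at 1.16, 1.79 and 5.89 TPM against 14.0 to 18.7 TPM (-2.67 ± 0.50). Pcna was at 27.9 to 44.4 against 53.8 to 63.0 TPM (-0.91 ± 0.15, under the fold limit). In untreated cells 1 of 4 tested was lower, and 5 of 13 had a called interaction of strain and diet, toward lower BALB/cJ levels on AMLN. In NSG hosts none of the 13 tested was called.

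Immediate-early genes were higher in 8 of 18 cases and lower in 1. Fos was at 778, 302 and 359 TPM in BALB/cJ and at 66.4, 93.4, 150.4 and 42.9 TPM in C57BL/6J (2.21 ± 0.48), and in untreated cells it was not called (-1.76, adjusted p = 0.050). The number higher was 5 without BALB/cJ library 1 or without C57BL/6J library 2 or 4, and 7 of the 18, Klf2 (1.59 ± 0.31) among them, are held higher by other liver cells. Atf3, a stress factor, was the lower gene, at 27.7 to 40.7 against 75.7 to 125 TPM (-1.76 ± 0.23). Of 12 heat shock genes 4 were higher and none lower. The inducible chaperones Hspa1a and Hspa1b were at 108 to 348 against 8.81 to 50.1 TPM (2.56 ± 0.62) and at 166 to 436 against 12.96 to 56.2 TPM (2.65 ± 0.54). They are near-identical copies, and BALB/cJ library 1 was the highest in both and in Fos. The constitutive Hsp90ab1 did not pass (0.23 ± 0.13). Of 28 genes of oxidative phosphorylation 5 were lower, none without BALB/cJ library 2, 3 without C57BL/6J library 3 or with DESeq2, 1 in 1 fit over the 3 AMLN groups and 2 in 1 fit over all parental groups.

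Genes of sinusoidal endothelium were higher in all 15 tested cases, with a median of 4.33. Kdr, the VEGF receptor, was at 72.2, 84.7 and 394 TPM against 3.01 to 5.15 TPM (5.25 ± 0.62), and Clec4g at 251, 192 and 877 TPM against 7.63 to 18.2 TPM (4.74 ± 0.57). Of 14 stellate cell markers 10 were tested, of which 8 were higher, with a median of 2.69. Reln, low in C57BL/6J, passed the filter of 8 TPM through BALB/cJ alone. With no low-count filter 11 of 14 were higher and none lower. Dcn, decorin, was at 222, 181 and 348 TPM against 11.2 to 25.8 TPM (3.70 ± 0.34) and Reln at 23.1 to 63.4 against 0.925 to 2.68 TPM (4.64 ± 0.47). Of 15 hepatocyte genes 14 were higher, with a median of 2.40, among them Alb at 951, 1426 and 862 TPM against 95.7, 365, 101 and 126 TPM (2.40 ± 0.49), and Cps1 at 12.6 to 48.7 against 0.635 to 4.39 TPM (3.62 ± 0.66). In 1 fit over the 3 AMLN groups, where A/J libraries enter the estimate of the spread, 2 of the 15 hepatocyte genes were called, Alb was not (2.40, adjusted p = 0.099), and the median was the same, while 10 were called in 1 fit over all parental groups. Jchain, a gene of antibody-secreting cells, was at 43.2 to 68.8 against 1.86 to 6.16 TPM (3.56 ± 0.34), and Nkg7, of cytotoxic lymphocytes, at 3.24 to 5.29 against 5.85 to 20.2 TPM (-2.03 ± 0.43). Plac8, a gene of monocytes, was at 14.3 to 31.7 against 50.5 to 111 TPM (-2.15 ± 0.35) and lower untreated too (-3.44). It was the single called gene of 8 monocyte and neutrophil markers tested, and is itself held higher by other liver cells. Without BALB/cJ library 1 or 2 there were 3 higher and 1 lower of 9, and with DESeq2 2 higher and 1 lower of 8.

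**Figure D4:**
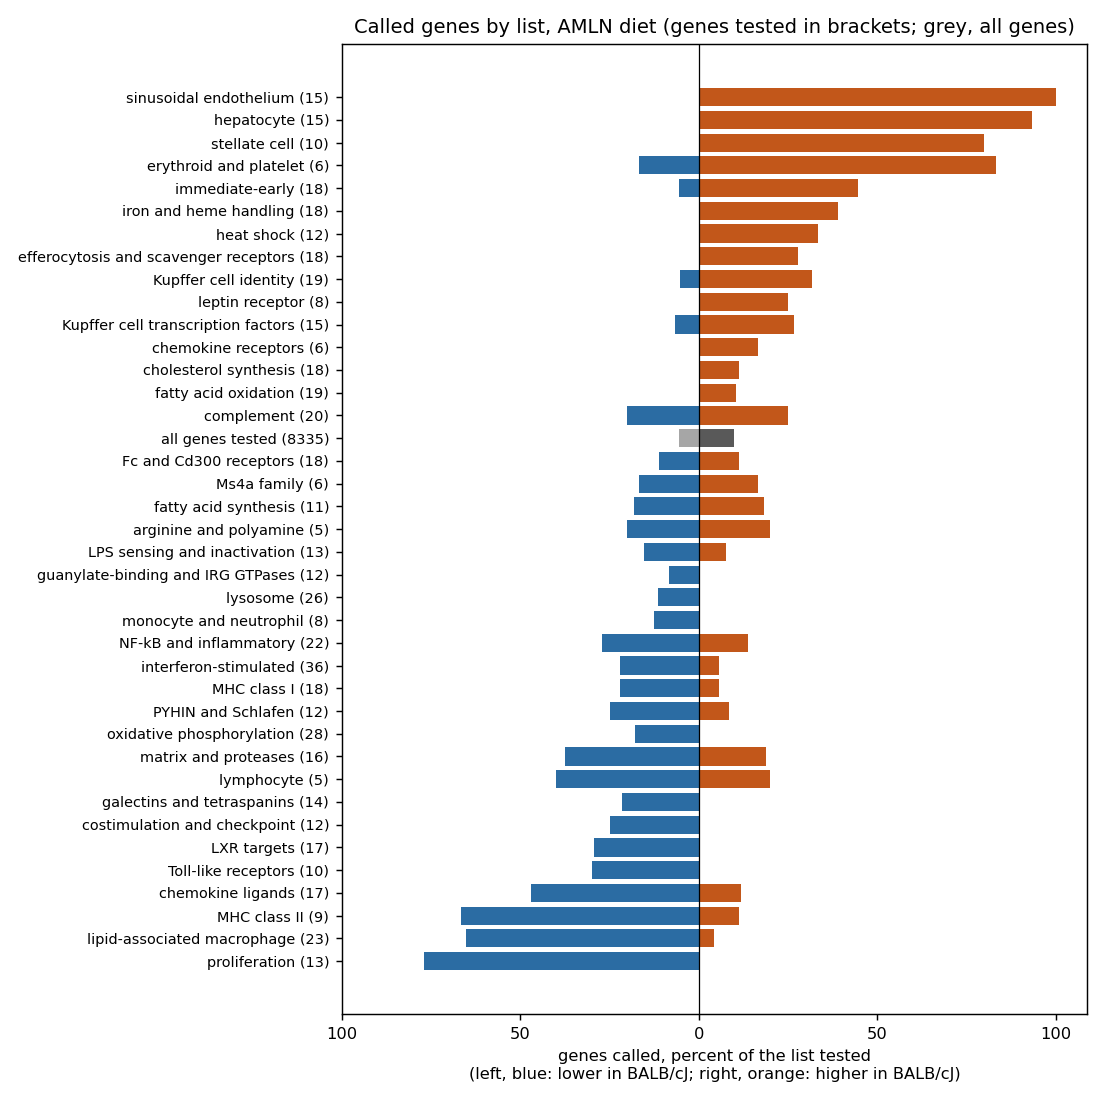
Percent of the tested genes of each list that were called higher (right, orange) or lower (left, blue) in BALB/cJ on AMLN, for lists with at least 5 tested genes, with the number tested in brackets and all 8335 genes in grey. Lists of other liver cells are at the upper end, and proliferation, class II and lipid-associated macrophage genes at the lower end.

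Several of the largest differences were near absence in 1 strain. Vsig8 was at 0.054 to 0.085 TPM in BALB/cJ and at 26.6 to 34.2 TPM in C57BL/6J, and at most 0.689 TPM in all untreated libraries. Chst11, a chondroitin sulfotransferase, was at 0.194 to 0.317 against 18.3 to 26.6 TPM (-6.58 ± 0.25), and untreated at most at 0.168 TPM in both strains. Of these 4 groups, AMLN-fed C57BL/6J cells alone held both genes at 18.3 TPM or more. Btbd11, Fblim1 and Cyp4f18 were lower in BALB/cJ in all 3 settings, with AMLN differences of -7.48 ± 0.51, -5.45 ± 0.29 and -5.30 ± 0.19 and BALB allele shares in hybrids of 8.84%, 5.76% and 19.3%. Cacna1a, a calcium channel gene, and Atp6v0e2, a proton pump subunit, were higher in all 3, by 6.55 ± 0.53 and 7.06 ± 0.28 on AMLN, with BALB allele shares of 65.8% and 88.0%. Atp6v0c, another pump subunit, was at 1.17 to 1.18 against 119 to 157 TPM. It has processed copies in the mouse genome, so that this value is uncertain.

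The strain difference on AMLN was compared with those in untreated cells and in NSG hosts, which share no library with it. In untreated cells 463 of 7803 genes (5.93%) were called, 242 higher (3.1%) and 221 lower (2.83%) in BALB/cJ. Of 7477 genes tested in both, 727 were called on AMLN and 405 untreated. The same direction was called in both for 203 genes, 27.9% of the first and 50.1% of the second set, and the opposite for 33, Trem2, Cd63, Mmp12, Mmp13, Isg15 and Cxcl14 among them. In NSG hosts 292 of 8043 genes (3.63%) were called, 139 higher (1.73%) and 153 lower (1.9%). Of 7571 genes tested in both, 150 were called in the same direction, which is 18.5% of the 810 on AMLN and 63.0% of the 238 in NSG hosts. In all 3 settings 114 genes were called in 1 direction. Among them are ribosomal protein genes, pseudogenes and gene models. Some of these may share reads with near-identical copies, so that their values are uncertain. Gm15772 and Rpl26, for instance, had the same difference in each setting (-7.48 on AMLN).

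The interaction of strain and diet was called for 1115 of 8662 genes (12.9%), 629 (7.26%) toward a higher and 486 (5.61%) toward a lower BALB/cJ level on AMLN. The count fell to between 515 and 638 without any 1 of the 4 untreated libraries, and was 626 without genes held higher by other liver cells. Of the 823 genes higher on AMLN, 434 (52.7%) had a called interaction of the same sign, and of the 469 lower genes 215 (45.8%). By list, 15 of 23 lipid-associated genes had a called interaction toward lower BALB/cJ levels and none the other way. Lgals1, galectin-1, was at 56.3 to 142 TPM on AMLN in BALB/cJ and at 57.9 to 135 TPM in C57BL/6J, not called, while untreated it was at 63.0 and 65.5 against 1.69 and 0.194 TPM.

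**Figure D5:**
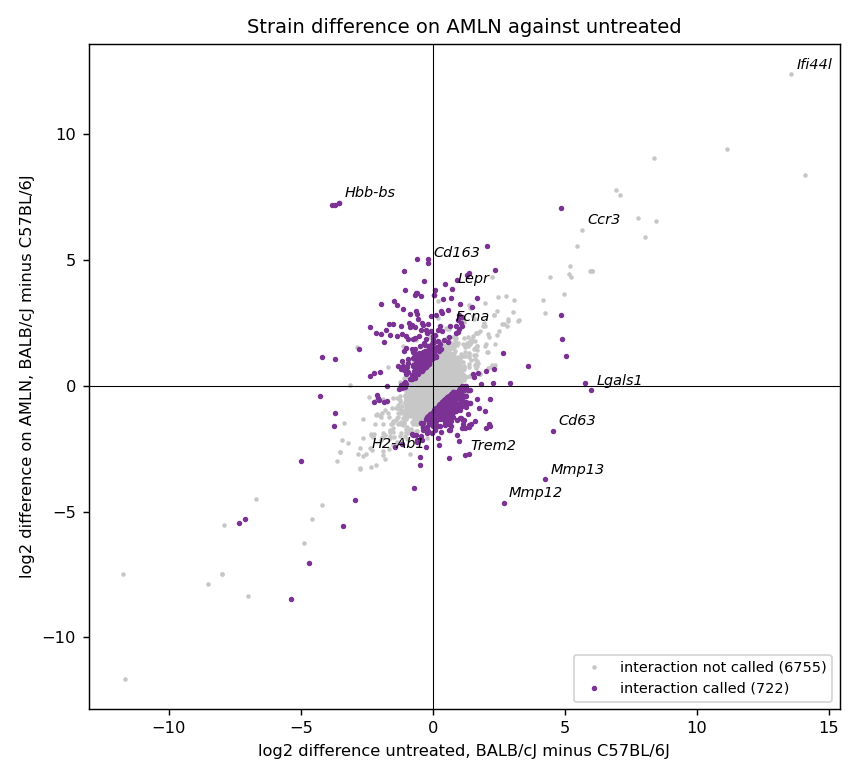
Log2 difference of BALB/cJ over C57BL/6J on AMLN (y axis) against that in untreated cells (x axis), with 1 point for each of 7477 genes tested in both. The 722 genes with a called interaction of strain and diet (purple) lie away from the diagonal, with Trem2, Mmp12, Mmp13 and Cd63 positive untreated and negative on AMLN.

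Allele shares in untreated CB6F1/J hybrid Kupffer cells (4 libraries) gave a reading of the same genes with both alleles in 1 cell. Among 3682 genes on autosomes, each with 10 or more variant-spanning reads on average, the median BALB share was 49.8%. The share was over 66.7% in every library for 1.33% and under 33.3% for 1.90%. The deposited allele counts come in steps of 0.5. For 66 of these genes, Alb among them, the share lay within 0.1 percentage points of 50% in every library. Whether these are measured balances was not tested. None of the genes over 66.7% or under 33.3% is affected, but the denominators hold such genes, 7 of those higher and 3 of those lower on AMLN below. Of 399 such genes higher in BALB/cJ on AMLN, the share was over 66.7% for 29 (7.27%), and of 233 lower genes it was under 33.3% for 35 (15.0%). Of those also called in that direction in untreated cells the fractions were 24 of 65 (36.9%) and 26 of 70 (37.1%). Cd163 (52.1% ± 1.9) and Lepr (48.4% ± 0.71) had shares near balance, and Gfra2 (78.3% ± 1.6) and Arg2 (77.6% ± 0.75) were carried mostly by the BALB allele. Cd207 (30.7% ± 1.3) and Nr1h3 (37.9% ± 1.0), both lower in BALB/cJ on AMLN, also had low shares, and Hpgd, higher in BALB/cJ on AMLN, had a share of 17.5% ± 3.5. The hybrids were not fed AMLN, so that allele shares on the diet are not given.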

How the data were processed

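RNA-seq was made from sorted Kupffer cells with poly(A)-selected, dUTP-stranded libraries. The authors aligned reads with STAR to strain genomes built from mm10 with each strain's variants, moved coordinates back with MMARGE, and counted reads over exons with HOMER. Whether the counting used strand was not given in the sources used here. The deposited raw counts per gene were used for tests and the deposited TPM values for levels. Reads of the hybrids that span strain variants were deposited by the authors as estimated counts per allele, from reads matching 1 parental genome perfectly, and give the allele shares. TPM columns sum to 0.509 to 0.543 M (M, 1e6) over the 23608 genes in the tables.

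Genes were tested with edgeR 4.0.16 in R 4.3.3 (TMM, robust quasi-likelihood F test) if they passed filterByExpr and the mean TPM of 1 or more of the groups compared exceeded 8. A gene could thus enter through its level in 1 strain alone, and list counts and medians cover only the members tested. Adjusted p-values are Benjamini-Hochberg over all genes tested. Members and gene lists were chosen with earlier results of these data known, so that lists are described by counts and medians beside all genes. Named genes are up to 3 called members per direction and the most abundant member of each list, the largest differences whose libraries do not overlap, leaving out gene models and variable families, the largest interactions, the most abundant called genes, and all genes of the strain check, leptin receptor and study lists. Those outside this rule are marked as chosen after their values were seen. Promoters are RefSeq windows on GRCm38.p6. Alternatives were DESeq2 1.42.0, other size factors, other filters, left-out libraries, a replicate block and wider fits. Values of some genes are not reported here. No pair of libraries agreed within sampling noise.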

Additional observations from a re-analysis of the deposited data

Results flagged for a closer look

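In 8 of 140 genes described, 1 of the 4 AMLN-fed C57BL/6J libraries stood far from the other 3, measured as its gap over the range of the group; chance gives about 1 in 20 such groups. C57BL/6J library 2 stood apart in Slc40a1 (842 TPM), Atf5 (27.3 TPM), Alb (365 TPM) and Hbb-bs (5.06 TPM). Library 3 stood apart in Ctsd (5525 TPM), Ifi44l (0.05 TPM), Isg15 (36.1 TPM) and Ube2c (18.7 TPM).

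In 61 of 140 genes described, edgeR's interaction of strain and diet was called, coded as the BALB/cJ minus C57BL/6J log2 difference on AMLN less that in untreated cells. Each value rests on 2 untreated libraries per strain, and diet cannot be told apart from fasting, age and date. The same holds for the colony of the C57 mice, if it differed between the diets. Among Kupffer cell genes the interaction was 5.08 for Cd163, 1.24 for Hpgd, 1.57 for Spic, 1.72 for Fcna, 3.10 for Lepr, 1.28 for Fcgrt and -1.54 for Cd207. Among lipid-associated and lysosomal genes it was -5.69 for Gpnmb, -4.92 for Itgax, -3.98 for Trem2, -3.46 for Cd9, -6.36 for Cd63, -1.86 for Lgals3, -1.09 for Ctsd and Psap, -1.22 for Acp5 and -6.15 for Atp6v0d2. Among proteases it was -7.35 for Mmp12, -7.97 for Mmp13 and -6.37 for Adam8.

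Among immune genes the interaction was -5.74 for Cd276, -1.26 for Psmb8, -3.06 for Ifi44, -3.20 for Xaf1, -3.77 for Isg15, -1.62 for Ifit3, -2.25 for Slfn9, 3.22 for Il1b, 1.86 for Il1a, -3.36 for Il1rn, -2.96 for Cxcl14, -2.37 for Ms4a7, -1.17 for Fcgr1 and 1.98 for Socs3. Among lipid and complement genes it was 1.43 for Insig1, -1.28 for Apoe and 3.71 for C2. Among genes of proliferation and stress it was -2.25 for Mcm5, -1.17 for Pcna, 3.96 for Fos and -1.86 for Atf3.

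Among genes of other liver and blood cells the interaction was 2.05 for Selenop, 3.18 for Alb, 5.62 for Mup3, 4.78 for Cps1, 4.34 for Dcn, 4.76 for Reln, 4.88 for Rgs5, 5.37 for Kdr, 4.74 for Clec4g, 4.83 for Flt4, 10.8 for Hbb-bs, 10.9 for Hba-a1 and 5.06 for Jchain. Among the remaining genes it was -6.68 for Vsig8, -7.15 for Chst11, 1.91 for Fblim1, 1.84 for Cyp4f18, -2.37 for Atp6v0c, 2.20 for Atp6v0e2 and -6.19 for Lgals1.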

How the results depend on the processing

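On AMLN 1292 genes were called (823 higher and 469 lower in BALB/cJ). With filterByExpr alone, which tests more genes, 3060 were called (1936 and 1124), with no low-count filter 3263 (2055 and 1208), with no fold limit 3158 (1683 and 1475), and without genes held higher by other liver cells, an alternative chosen after seeing the data, 644 (230 and 414). In untreated cells filterByExpr alone gave 1164 (563 and 601) and no filter 1353 (630 and 723). In NSG hosts these gave 641 (247 and 394) and 766 (279 and 487). The interaction count of 1115 became 1859 with filterByExpr alone, 1915 with no fold limit, 626 without genes held higher by other liver cells and 515 to 1615 with 1 library left out; the cause was not tested. DESeq2 (1290) and other size factors (1290) moved the AMLN count little, and leaving out each library gave 1192 to 1551.

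Of 114 named genes called, 93 kept their call under every alternative run for them, 11 lost it when 1 library was left out, and no direction turned. Samples with the same number did not deviate together on AMLN (correlations -0.24, -0.067 and 0.010). Pairs of unlike number there spanned -0.24 to 0.294. In NSG hosts the same-number correlations were 0.031, 0.039 and 0.093. With so few libraries these values cannot exclude a pairing of the samples by number. A replicate block gave 1158 calls on AMLN (713 and 445) and 566 for the interaction. Depth did not limit the abundant genes, whereas levels under about 1 TPM rest on few reads.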
